A study of Homo sapiens with 3 samples.

Results

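The genes described are 7 bHLH-PAS transcription factor genes of the hypoxia and aryl hydrocarbon pathways, HIF1A, EPAS1, HIF3A, ARNT, ARNT2, AHR and AHRR, together with VEGFA, a hypoxia-induced target that encodes a secreted growth factor and not a bHLH-PAS protein. They are 8 of 20162 protein-coding genes. A listed peak was assigned to one of them when its summit lay in the gene body or within 20 kb of any annotated transcription start site (TSS). This gave 9 of the 13650 listed MAX peaks and 1 of the 756 listed BMAL1 peaks.

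BMAL1 and MAX were immunoprecipitated from cross-linked chromatin of MDA-MB-231, an established line of human triple-negative breast cancer cells grown in standard serum-containing medium with no siRNA or drug named in the labels, and the recovered DNA was sequenced. There was 1 library for each antibody and 1 input library, and peaks of each antibody were called separately against the same input. BMAL1 peaks rest on 13866783 tags, MAX peaks on 11545865 tags and the background on 29308882 input tags. The study asked whether MAX is recruited to the regions that BMAL1 binds. Without replicate libraries no value has a replicate spread, so no test between genes or antibodies was made, and the 95% Poisson intervals given beside fragment counts cover counting error only.

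bHLH-PAS proteins bind DNA as dimers. BMAL1 pairs with CLOCK to drive the circadian clock, whereas ARNT and its relative ARNT2 are the shared partners of the oxygen-regulated subunits HIF-1α (from HIF1A), HIF-2α (from EPAS1) and HIF-3α and of AHR, the receptor for dioxin-like ligands. MAX belongs to the related bHLH-zipper family and pairs with MYC or MNT. BMAL1 and MAX dimers recognize the E-box CACGTG, HIF dimers the cores ACGTG and GCGTG, and AHR with ARNT the core GCGTG. The letters of these sites overlap, since every CACGTG contains ACGTG on both strands.

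The DNA under the only BMAL1 peak is shown first because it is the one place among the 8 genes where both proteins were listed. The 200 bp of hg19 centred on the BMAL1 summit are printed on the plus strand of chr14:62161888-62162087, 5′ to 3′, with the E-box in capitals.
HIF1A site shared by BMAL1 and MAX: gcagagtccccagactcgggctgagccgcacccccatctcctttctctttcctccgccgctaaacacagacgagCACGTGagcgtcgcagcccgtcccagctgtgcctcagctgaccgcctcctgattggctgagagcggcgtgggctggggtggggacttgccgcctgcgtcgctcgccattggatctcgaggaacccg
The E-box occupies chr14:62161962-62161967. Its first base lies 269 bp upstream of the canonical HIF1A TSS, its nearest base is 21 bp from the BMAL1 summit, and the MAX summit is 45 bp away on the other side. A CACGTG was found within such a 200 bp window at 75.3% of all BMAL1 peaks and at 21.2% of all MAX peaks, against 2.98% and 2.53% of windows 2 kb to either side.

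HIF1A encodes the oxygen-regulated subunit of HIF-1 and spans chr14:62162231-62214977 on the plus strand (ENSG00000100644.17). Its BMAL1 peak covered chr14:62161789-62162186 with the summit 243 bp upstream of the TSS. At that summit 40 extended BMAL1 fragments were piled up (95% Poisson interval 28.6 to 54.5) over a local background of 2.41, which is a 16.58-fold enrichment over input (11.8 to 22.6) with a −log10 p of 34.86. The peak ranked 141 of 756 by fold enrichment, above 81.3% of the list, whose median was 10.27. The BMAL1 peak at HIF1A was therefore stronger than most BMAL1 peaks.

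The MAX peak at the same place covered chr14:62161507-62162138, shared 350 bp with the BMAL1 peak, and had its summit 314 bp upstream of the TSS, inside an intron of the antisense transcript HIF1A-AS1. It held 25 fragments (16.2 to 36.9) over a background of 2.76, a 9.07-fold enrichment (5.87 to 13.4) with a −log10 p of 16.3. This was above 40.4% of all MAX peaks by fold enrichment and above 71.2% by −log10 p. The 2 summits were 71 bp apart, against a median of 54 bp over all pairs of overlapping peaks. Among the 637 MAX peaks that overlap a BMAL1 peak, whose median fold enrichment was 13.76, the HIF1A peak stood above 14.8%. Among the 636 BMAL1 peaks that overlap a MAX peak, whose median was 10.38, it stood above 79.9%. The HIF1A promoter thus held a BMAL1 peak in the upper part of its list with a MAX peak in the lower part of the shared peaks. Heights of the 2 antibodies were not tested against each other, since their lists differ in depth and in how many duplicate tags were kept.

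**Figure D1:**
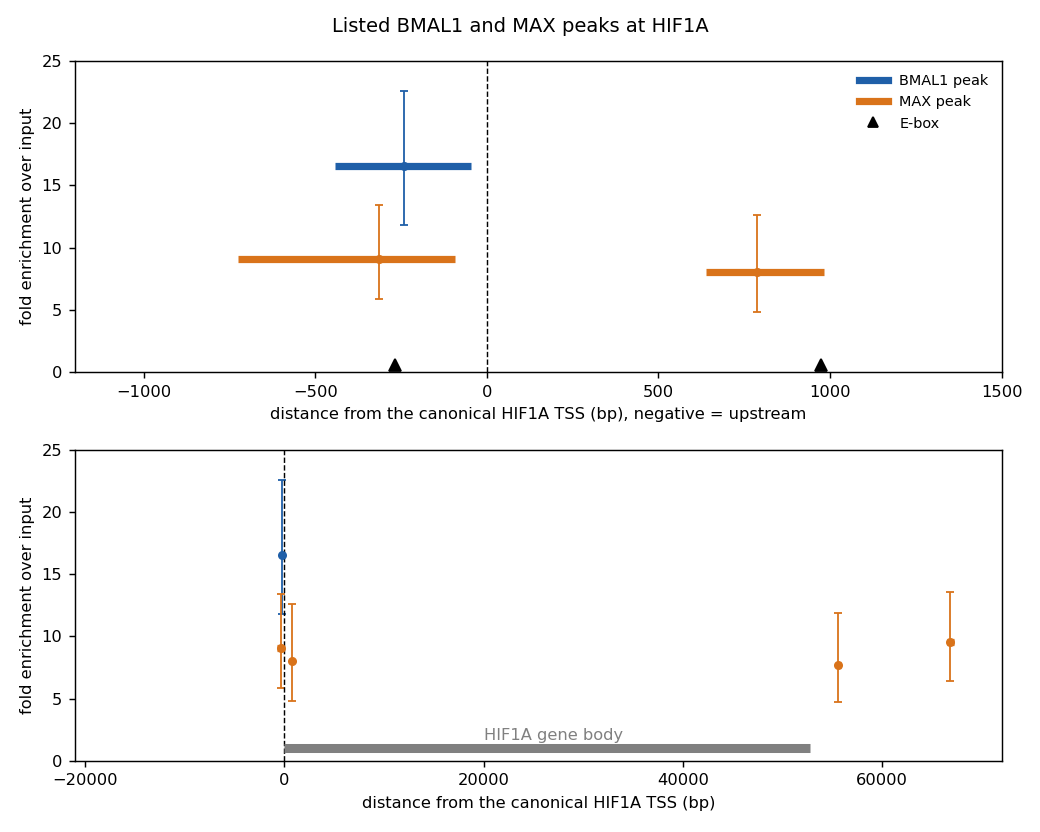
Fold enrichment over input (vertical axis) of the listed peaks at HIF1A against distance from the canonical TSS in bp (horizontal axis), close to the TSS in the upper panel and over the whole gene in the lower one. Horizontal bars span each peak, dots mark summits, vertical lines are 95% Poisson intervals and triangles are E-boxes; the BMAL1 peak at 16.58-fold and a MAX peak at 9.07-fold lie over the same E-box upstream of the TSS, and the other 3 MAX peaks lie without a BMAL1 peak.

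Another 3 MAX peaks met the rule for HIF1A, with no BMAL1 peak over them. The one at chr14:62162868-62163213 lay in a HIF1A intron, where the summit was 788 bp past the canonical TSS and 409 bp upstream of the start of HIF1A-AS1, and held 19 fragments (11.4 to 29.7), an 8.04-fold enrichment (4.84 to 12.6). The one at chr14:62217638-62218083 lay beyond the end of the gene, 2 bp from the start of the noncoding gene HIF1A-AS3, with 20 fragments (12.2 to 30.9) and a 7.69-fold enrichment (4.7 to 11.9). The one at chr14:62228725-62229419 held 30 fragments (20.2 to 42.8), the most of any MAX peak at the 8 genes, and a 9.52-fold enrichment (6.42 to 13.6). Its summit was 139 bp upstream of SNAPC1, which encodes a subunit of the small nuclear RNA activating complex, and 16676 bp from a HIF1A TSS. The rule therefore counts under HIF1A a peak that sits at the promoter of its neighbour. The intronic peak contains an E-box, but 184 bp from the summit and at the edge of the peak. It is shown with 12 bases on either side, E-box in capitals, from the plus strand of chr14:62163191-62163220.
HIF1A intronic E-box: ctttttagtttgCACGTGcaggttttgttt

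EPAS1 encodes HIF-2α, spans chr2:46520806-46613836 on the plus strand (ENSG00000116016.14) and had 1 MAX peak and no BMAL1 peak. The MAX peak covered chr2:46525827-46526152 in an intron. From its summit to the canonical TSS upstream were 1460 bp, and to the nearest annotated EPAS1 TSS 1103 bp. It held 14 fragments (7.65 to 23.5) over a background of 1.28, which is the genome-wide level, and reached 10.91-fold (5.96 to 18.3), the highest fold enrichment of a MAX peak at the 8 genes. By fold enrichment it was above 62.7% of MAX peaks, and by fragments at the summit above 14.1%. The MAX peaks at HIF1A held more fragments, over backgrounds of 2.36 to 3.15. The 200 bp around the summit, 73.0% G or C against a median of 60.5% for MAX summits, contained neither the E-box nor either core, and the central 100 bp are printed from the plus strand of chr2:46525956-46526055 to show a summit without these letters.
EPAS1 MAX summit: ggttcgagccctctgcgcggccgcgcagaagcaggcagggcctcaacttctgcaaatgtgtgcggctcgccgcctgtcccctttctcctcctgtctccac
The E-box of EPAS1 nearest to the canonical TSS starts 1276 bp upstream of it, at chr2:46523270-46523275, and no listed peak covered it.

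HIF3A encodes HIF-3α, which can act as a brake on the other HIF subunits, and spans chr19:46800299-46846690 on the plus strand (ENSG00000124440.16). No MAX or BMAL1 peak met the rule there. The nearest MAX summit was 52236 bp from a HIF3A TSS, next to PPP5C, and the nearest BMAL1 summit was 339731 bp away.

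ARNT, the common partner of HIF and AHR subunits, spans chr1:150782189-150849184 on the minus strand (ENSG00000143437.21) and also had no listed peak. Its nearest MAX summit lay 49554 bp from an ARNT TSS, next to SETDB1, and its nearest BMAL1 summit 404823 bp away. Neither gene had a CACGTG within 5 kb of its canonical TSS, although ARNT had 3 copies of the variant E′-box (CACGTT or AACGTG) downstream of it, all without a peak.

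ARNT2, the relative of ARNT with known functions in the nervous system, spans chr15:80696692-80890274 on the plus strand (ENSG00000172379.22) and had 3 MAX peaks and no BMAL1 peak. The 3 lay near the 3′ end of the gene, with summits 183456, 184573 and 192053 bp downstream of the canonical TSS. From the nearest annotated ARNT2 TSS they were 13773, 14890 and 22370 bp away. The peak at chr15:80880047-80880394 held 14 fragments (7.65 to 23.5) at 7.11-fold (3.89 to 11.9), the lowest fold enrichment among the 9. The peak at chr15:80881222-80881529, also intronic, held 12 fragments (6.2 to 21.0) at 9.35-fold (4.83 to 16.3). The peak at chr15:80888679-80889001 lay in annotated UTR and had the same 12 fragments and 9.35-fold enrichment. All 3 stood low in the list, with −log10 p values of 8.5, 8.9 and 8.9, and 3.15% of MAX peaks held fewer than 12 fragments.

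The middle of these ARNT2 peaks is shown because it carries an ACGTG core 6 bp from its summit and an E-box 182 bp from it. The core is in capitals as read on the plus strand (CACGT, the reverse complement of ACGTG) in chr15:80881277-80881336, and the E-box is in capitals in chr15:80881467-80881496.
ARNT2 MAX summit: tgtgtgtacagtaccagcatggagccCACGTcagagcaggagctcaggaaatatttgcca
ARNT2 E-box: aggaccaggaggCACGTGagaaagagtagt

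AHR encodes the aryl hydrocarbon receptor and spans chr7:16955983-17385776 on the plus strand (ENSG00000106546.14), the longest of the 8 genes at 429794 bp. The canonical AHR TSS is at chr7:17338276, and most of the span lies upstream of it, back to an alternative annotated start. No MAX or BMAL1 peak fell in the 459.0 kb AHR region. The nearest MAX summit lay 270186 bp from any AHR TSS and 641880 bp from the canonical one, next to BZW2, and the nearest BMAL1 summit 4229802 bp from any AHR TSS. An E-box starts 165 bp upstream of the canonical TSS, at chr7:17338111-17338116, nearer to its TSS than the E-box under the HIF1A peaks. HIF3A likewise has a pair of E-boxes close to the start of an alternative protein-coding transcript, at 35 and 20 bp upstream of it, and neither is covered by a peak. These unlisted promoter E-boxes are printed beside the listed one of HIF1A, each with 12 bases on either side on the plus strand and the E-box in capitals. They are from chr14:62161950-62161979, chr7:17338099-17338128, chr19:46807059-46807088 and chr19:46807074-46807103.
HIF1A, BMAL1 and MAX peak: aacacagacgagCACGTGagcgtcgcagcc
AHR, no peak: gtcctacgtcatCACGTGccgggatgaggg
HIF3A, no peak: gagccccggcccCACGTGgcagctccccac
HIF3A, no peak, neighbouring E-box: gtggcagctcccCACGTGctcgtcccgtcc

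AHRR encodes the repressor that competes with AHR for ARNT, spans chr5:321829-438406 on the plus strand (ENSG00000063438.20) and had 1 MAX peak and no BMAL1 peak. The MAX peak covered chr5:391316-391615 in an intron, also an intron of the readthrough gene PDCD6-AHRR, with the summit 29605 bp from the nearest AHRR TSS. It held 13 fragments (6.92 to 22.2) over a background of 1.48, an 8.8-fold enrichment (4.69 to 15.0), with fewer fragments at only 7.55% of MAX peaks. The summit lay at the edge of a tandem repeat. Copies of GCGTG start at 4 positions in the peak, each 49 bp after the last, and in the genome 12.9 units of the 49-bp repeat with 13 copies of GCGTG fill chr5:391413-392042, so that 203 of the 300 bp of the peak are repeat. The methods give a read length of 50 bases and the header of the list a tag size of 51, both about the length of 1 unit, and the part of the repeat in this peak was not tested. The repeat is printed from the plus strand of chr5:391410-391609 with GCGTG in capitals.
AHRR MAX summit: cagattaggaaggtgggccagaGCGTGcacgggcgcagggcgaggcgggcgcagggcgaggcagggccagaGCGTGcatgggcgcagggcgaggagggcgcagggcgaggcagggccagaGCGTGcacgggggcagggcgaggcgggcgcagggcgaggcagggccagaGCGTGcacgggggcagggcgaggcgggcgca
AHRR had 48 E-boxes in its 150.0 kb region, the most of the 8 genes, and 0 of them were covered by a peak.

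VEGFA encodes the vascular endothelial growth factor A that HIF dimers induce, and spans chr6:43737921-43754224 on the plus strand (ENSG00000112715.26). No peak of either protein met the rule. The nearest MAX summit lay 140160 bp from a VEGFA TSS, next to MAD2L1BP, and the nearest BMAL1 summit 523271 bp away. VEGFA had no CACGTG and no E′-box within 5 kb of its canonical TSS, but it had the most ACGTG cores of the 8 genes between 1500 bp upstream and 500 bp downstream of it. There were 3, at 976, 511 and 313 bp upstream, none of them part of an E-box, and they are printed from the plus strand of chr6:43736960-43736989, chr6:43737425-43737454 and chr6:43737623-43737652 with the core in capitals (CACGT where it is read on the other strand).
VEGFA core at 976 bp upstream: tccacagtgcatACGTGggctccaacaggt
VEGFA core at 511 bp upstream: tcgagagtgaggACGTGtgtgtctgtgtgg
VEGFA core at 313 bp upstream: aggccctgtccgCACGTaacctcactttcc
HIF1A, EPAS1 and AHR had 2 matches to ACGTG each in that stretch, both from the strands of a single E-box, ARNT2 had 1, and HIF3A, ARNT and AHRR had 0. GCGTG was found from 3 times (HIF1A, EPAS1 and AHR) to 6 times (AHRR and VEGFA). A match is a description of the letters and not evidence that a factor binds there.

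**Figure D2:**
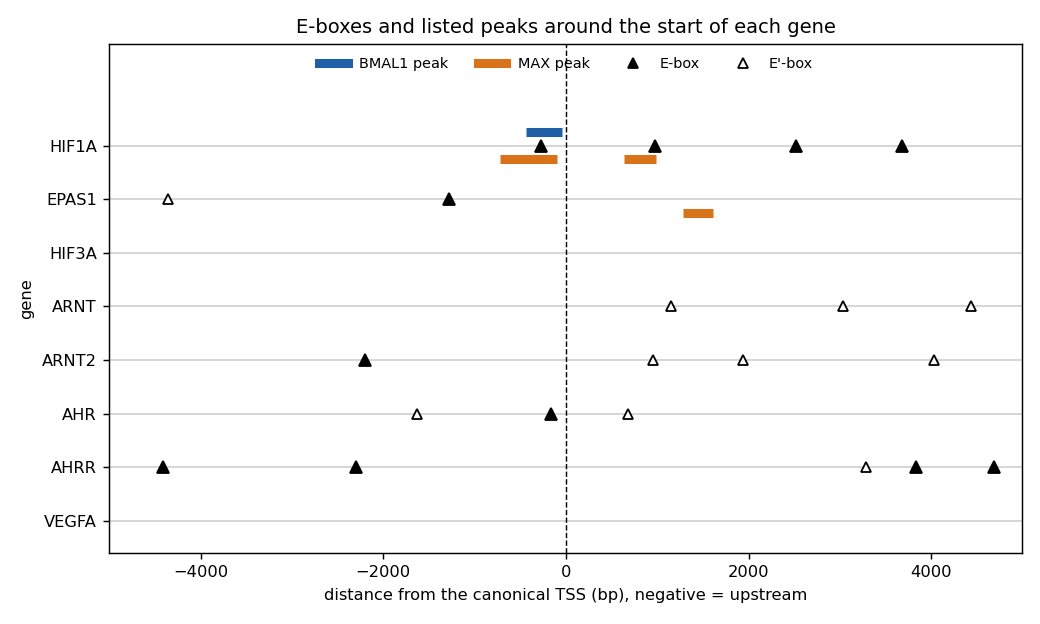
E-boxes (filled triangles), E′-boxes (open triangles) and listed BMAL1 and MAX peaks (bars) within 5 kb of the canonical TSS of each of the 8 genes, with the distance from the TSS in bp on the horizontal axis, negative upstream. HIF1A has peaks over its E-boxes at −269 and 972 bp and none over those at 2520 and 3679 bp. EPAS1 has a MAX peak away from its E-box, and the other 6 genes have no peak in this stretch.

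Counted over genes, 4 of the 8 (HIF1A, EPAS1, ARNT2 and AHRR) had a MAX peak by the rule, against 54.8% of all protein-coding genes. HIF1A alone had a BMAL1 peak, 1 of 8 against 4.97% of all genes. For MAX the share is near that background with all listed peaks, but with peaks of p at most 1e-12 it was 1 of 8, HIF1A, against 39.1% of all genes. By the narrower promoter rule, a peak within 300 bp of a TSS, HIF1A was again the only gene for either protein, 1 of 8 against 33.7% for MAX and 1.63% for BMAL1. Of the genes with a CACGTG within 300 bp of a TSS, 46.2% had a MAX peak there and 4.59% a BMAL1 peak, and of the 3 such genes here, HIF1A, HIF3A and AHR, 1 had each. The rule reaches further in long genes, and the regions of the 8 ran from 48.0 kb (VEGFA) to 459.0 kb (AHR) against a median of 56.1 kb. Together they covered 1.25 Mb with 7.18 MAX summits and 0.798 BMAL1 summits per Mb, beside 7.4 and 0.392 per Mb over the regions of all protein-coding genes. The 0.798 per Mb is the single HIF1A summit.

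E-boxes in these regions were mostly without a peak, as they were elsewhere. The 8 regions held 155 CACGTG, from 4 at VEGFA to 48 at AHRR, of which 3 (1.94%) lay under a MAX peak, 2 at HIF1A and 1 at ARNT2, and 1 (0.645%) under a BMAL1 peak. Over all gene regions 2.5% of 166133 lay under a MAX peak and 0.442% under a BMAL1 peak. Within 100 bp of a summit, 1 of the 9 MAX peaks had a CACGTG against 21.2% of the list, 3 had an ACGTG core (the HIF1A promoter, the HIF1A-AS3 start and the middle ARNT2 peak) against 33.2%, and 4 had a GCGTG core (the other 3 HIF1A peaks and AHRR) against 42.4%. Windows 2 kb away held ACGTG in 9.85% and GCGTG in 17.2% of cases. EPAS1 and 2 of the ARNT2 peaks had none of the 3 at their summits.

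The 9 MAX peaks were of ordinary or low strength by fold enrichment. Their fold enrichment ran from 7.11 to 10.91 with a median of 9.07, beside a list median of 9.73 and quartiles of 7.86 and 12.37, and 1 of the 9, at EPAS1, was above the list median. By −log10 p their percentiles in the list ran from 11.5 to 81.8, with a median of 36.3. By fragments at the summit they ran from 3.15 to 89.1, with a median of 14.1. The HIF1A promoter peak stood at 71.2 and 79.2. In order, the strongest MAX peak assigned to each gene reached 10.91-fold at EPAS1, 9.52-fold at HIF1A, 9.35-fold at ARNT2 and 8.8-fold at AHRR, and every neighbour in this order lies inside the Poisson interval of the next. The 9.52-fold peak is the one 139 bp upstream of SNAPC1. At the HIF1A promoter itself the MAX peak reached 9.07-fold, below that of ARNT2. In fragments at the summit the order differed, with 30 at the peak upstream of SNAPC1, 25 at the HIF1A promoter and 12 to 14 at the other 3 genes, beside a list median of 18. The median length of the 9 peaks was 346 bp against 446 bp.

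**Figure D3:**
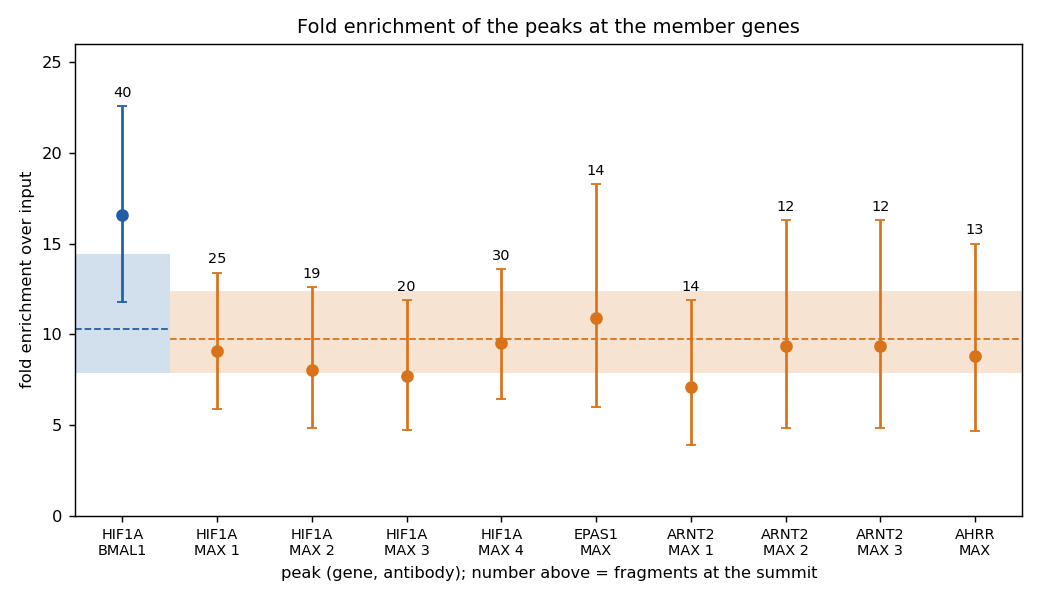
Fold enrichment over input (vertical axis) at the summit of the 1 BMAL1 peak (blue) and the 9 MAX peaks (orange) of the 8 genes, with 95% Poisson intervals as vertical lines and the number of fragments at the summit above each. Dashed lines and shaded bands are the median and quartiles of each whole list. The BMAL1 peak at 16.58-fold is above its upper quartile of 14.44. The MAX peaks run from 7.11-fold to 10.91-fold, with 1 of the 9 above their list median of 9.73.

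**Figure D4:**
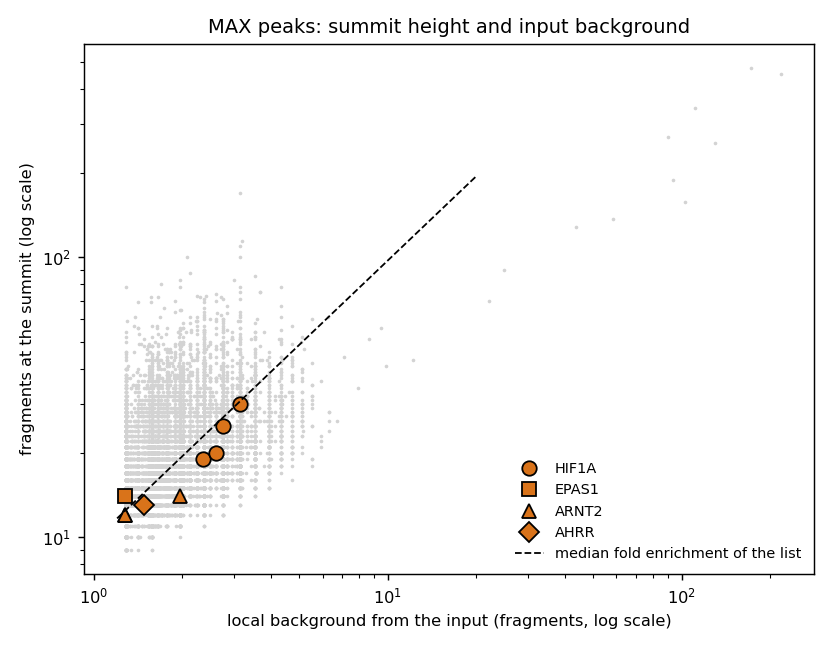
Fragments at the summit against the local input background in fragments, both on log scales, for all MAX peaks (grey) and those at HIF1A, EPAS1, ARNT2 and AHRR (symbols), with the line of the median fold enrichment. The HIF1A peaks lie at higher values on both axes (19 to 30 fragments, background 2.36 to 3.15) than the EPAS1, ARNT2 and AHRR peaks (12 to 14 fragments, background 1.28 to 1.97), so their fold enrichments are alike.

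The wider pathways were described with 5 lists of 66 other genes. Of all protein-coding genes, 54.8% had a MAX peak by the rule and 33.7% at a promoter. For BMAL1 these shares were 4.97% and 1.63%. The genes of all 5 lists were chosen with earlier results of these data known, so no enrichment of a pathway is read from the counts. Of 12 other bHLH-PAS genes, 6 had a MAX peak (50.0%) and 0 a BMAL1 peak, with 2 (16.7%) at a promoter. CLOCK, BMAL2, SIM1, SIM2, NCOA1 and NCOA2 had none. The highest was a 24.78-fold MAX peak assigned to NPAS2, a relative of CLOCK, but its summit was 7658 bp from an NPAS2 TSS and 128 bp from that of the ribosomal protein gene RPL31. NPAS1 followed with 12.6-fold and the nuclear receptor coactivator NCOA3 with 10.09-fold, both within 45 bp of their own TSS.

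Of 12 genes for oxygen sensing and turnover of the HIF subunits, 9 (75.0%, against 54.8% of all genes) had a MAX peak. Of these, 8 (66.7% of the list, against 33.7%) had one at a promoter, and 0 of the 12 had a BMAL1 peak (against 4.97%). The highest were CITED2, which competes with HIF for its coactivators, at 16.5-fold, the HIF prolyl hydroxylase EGLN2 at 14.21-fold and the coactivator CREBBP at 14.03-fold. ELOB, RBX1 and EP300 had none.

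Of 24 genes known to be induced by hypoxia, 22 (91.7%) had a MAX peak, 17 (70.8%) had one at a promoter, and 4 had a BMAL1 peak, 1 of these at a promoter. BNIP3 and INSIG2 had no MAX peak. Some of the others, ADM among them, had their strongest MAX peak closer to the TSS of a neighbour than to their own. The highest MAX peaks were at ANKRD37 (39.49-fold, above 99.9% of the list, 56 fragments, 146 bp from its TSS), at the lactate dehydrogenase gene LDHA (25.38-fold) and at the histone demethylase gene KDM3A (23.8-fold). The list's MAX counts stand above the background of 54.8% and 33.7%, and its BMAL1 counts stand beside 4.97% of all genes by the rule and 1.63% at promoters. Its genes were chosen as a description with earlier results of these data known, so no more is read from that.

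BMAL1 peaks in this list lay at ADM, LDHA, PFKFB3 and STC2, and each overlapped a MAX peak. At LDHA, 91 bp upstream of the TSS, BMAL1 reached 18.32-fold and MAX 25.38-fold. At ADM, which encodes the vasodilator adrenomedullin, BMAL1 reached 7.98-fold and MAX 19.74-fold, 2175 bp from an ADM TSS and 761 bp from that of AMPD3. PFKFB3, a regulator of glycolysis, had 9.21-fold and 9.14-fold at a site 2194 bp from its TSS. The strongest MAX peak of PFKFB3, 18.4-fold and 49 bp from its TSS, had no BMAL1 peak over it. STC2, the gene of the secreted glycoprotein stanniocalcin 2, had 9.66-fold and 12.69-fold, 3648 bp from its TSS. The BMAL1 value of LDHA lies inside the counting interval of the HIF1A peak (11.8 to 22.6), and those of PFKFB3, STC2 and ADM below it. The BMAL1 peaks of PFKFB3 and ADM held 17 fragments each and that of STC2 32. Their own counting intervals were not computed, so no difference from HIF1A is read from this.

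Every one of these 4 BMAL1 peaks contained a CACGTG, as 75.3% of all BMAL1 peaks did within 100 bp of the summit. The CACGTG nearest to each summit, 7 to 30 bp away, is printed in capitals with 12 bases on either side on the plus strand for comparison with HIF1A. The positions are chr11:18416011-18416040, chr11:10329117-10329146, chr10:6261171-6261200 and chr5:172759055-172759084, in the order shown.
LDHA: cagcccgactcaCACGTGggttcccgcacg
ADM: gggcgcgcagaaCACGTGtcctgggtgcga
PFKFB3: attgcggatcctCACGTGgagctcggttga
STC2: tgtgcaagttgaCACGTGctgcctggtcca

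Of 9 genes that encode AHR partners or are induced through AHR, 7 (77.8%, against 54.8% of all genes) had a MAX peak. At a promoter 6 (66.7%, against 33.7%) had one, and 0 of the 9 had a BMAL1 peak (against 4.97%). The highest were at HSP90AB1, whose chaperone product holds AHR in the cytoplasm, with 22.61-fold, and at CYP1B1, a cytochrome P450 gene induced by dioxins, with 12.47-fold, a value shared by TIPARP, another AHR-induced gene. CYP1A1 and CYP1A2, the classical AHR targets, had none.

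Of 9 genes of the VEGF family and its receptors, 4 (44.4%, against 54.8% of all genes) had a MAX peak. At a promoter 2 (22.2%, against 33.7%) had one, and 1 of the 9, PGF, had a BMAL1 peak (against 4.97%). PGF encodes placental growth factor, a VEGFA relative. Its BMAL1 peak reached 18.18-fold and the MAX peak over it 20.31-fold, with summits 42 bp apart, 17789 bp upstream of the nearest PGF TSS in the case of BMAL1. The E-box in it is shown from the plus strand of chr14:75440163-75440192.
PGF: cagcccaggctgCACGTGgctgggcctgct
The next MAX peaks were 14.89-fold for VEGFB, 484 bp from the TSS of PPP1R14B and 9891 bp from that of VEGFB, and 11.51-fold for NRP2, 70 bp from its own TSS. The receptors FLT1, KDR and FLT4 and the ligands VEGFC and VEGFD had no MAX peak, as was the case for VEGFA.

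**Figure D5:**
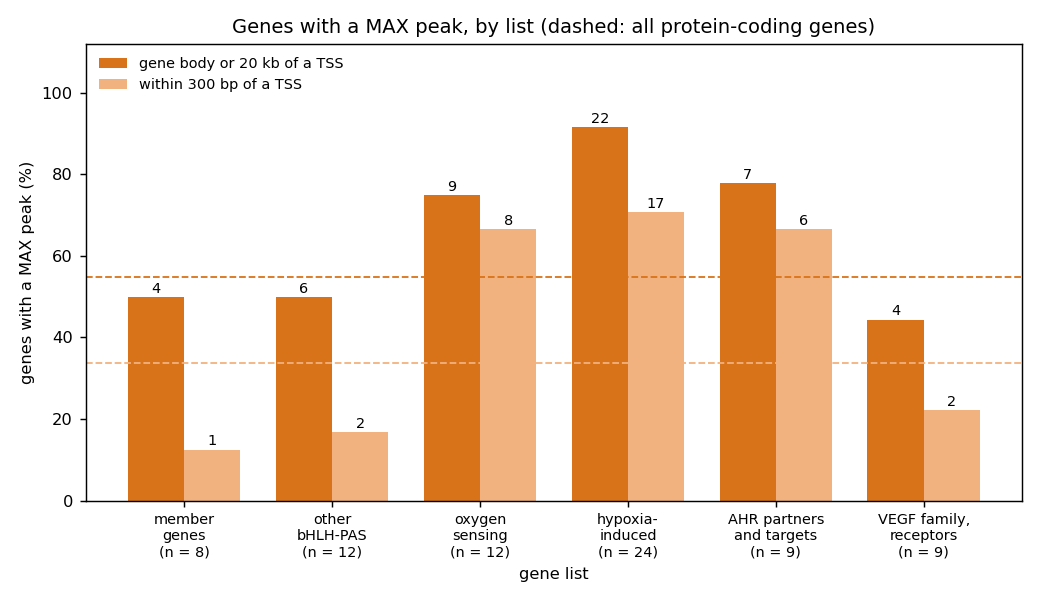
Share of genes (%) with a MAX peak by the rule (dark bars) and with one at a promoter, by the 300 bp rule (light bars) for the 8 genes described and the 5 pathway lists, with the number of genes above each bar and the share over all protein-coding genes as dashed lines (54.8% and 33.7%). The 8 genes stand at 50.0% and 12.5%, and the hypoxia-induced genes at 91.7% and 70.8%.

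A missing peak means that none passed the peak caller's threshold at this depth, not that the protein was absent. At the genome-wide background the weakest listed peaks held 12 fragments for BMAL1 and 9 for MAX. These are the lowest values seen in the lists, and the limit of the peak caller itself was not computed. The lists also hold no RNA measurement, so they do not show which of these genes the cells express.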

How the data were processed

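ChIP-seq reads were aligned by the authors on hg19 with BWA 0.6.2, and peaks were called with MACS2 2.0.9 against the input. Per the file headers, tags were extended to 300 bp, duplicates were limited to 2 (BMAL1) or 1 (MAX) per position, and the p-value cutoff was 1e-05, while the methods state 1e-08. All listed peaks were used. The pileup signal deposited by the authors is the number of extended fragments at the summit, not scaled to depth. The deposited fold enrichment is the ratio of pileup to local input background. The deposited −log10 p-values are those of the peak caller.

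Background was computed as pileup over fold enrichment, percentiles as the share of the list below a peak, and exact Poisson intervals from the pileup. The summit is a local maximum, so intervals are not corrected for its choice. Genes and TSSs were taken from GENCODE release 44 in its GRCh37 version. GRCh37 is the assembly named hg19, and sequences were read from it. Motifs were searched on both strands in 200 bp centred on summits. The rule for names took the 8 genes, listed genes with a BMAL1 peak, and the 3 highest MAX folds of each list. Listed genes without a MAX peak are outside the rule and were named after their values were seen. Some genes of the lists are not reported here and were left out of their counts. The members and lists were chosen with earlier results of these data known. Counting was tested on simulated peaks and motifs. Tables were handled in Python 3.11.15 (pandas 2.3.3, numpy 2.4.6), sequences with pysam 0.24.0, intervals with scipy 1.17.1 and plots with matplotlib 3.10.9.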

Additional observations from a re-analysis of the deposited data

How the results depend on the processing

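Of 39 values recomputed under an alternative, 29 were counts that moved by no more than 1.5 times, and the other 10 are given here. With MAX peaks of p at most 1e-12, the MAX peaks at the 8 genes fell from 9 to 3 and the genes with one from 4 to 1, HIF1A, against 39.1% of all genes. Genes with a promoter MAX peak went from 1 to 0 when the summit itself had to lie within 300 bp (29.0% of all genes), and to 2, HIF1A and EPAS1, within 1 kb (36.9%). The median percentile of the 9 MAX peaks was 40.4 by fold enrichment, 36.3 by −log10 p and 14.1 by fragments at the summit. MAX peaks with a CACGTG at the summit went from 1 to 0 in windows of 100 bp (13.5% of the list) and to 3 in windows of 400 bp (27.2%). Of the 66 list genes, those with a BMAL1 peak fell from 5 to 3 at p at most 1e-12, where the share of all genes fell from 4.97% to 3.81%. Within 1 kb of a TSS the list count was 1, and the share of all genes is not given for that setting. The HIF1A pair was kept in both alternatives run on it, summits within 100 bp and MAX peaks of p at most 1e-12. Both outcomes follow from the summit distance and the MAX −log10 p given above, so they add no support. No paired analysis was possible because each antibody had 1 library.

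EPAS1, ARNT2 and AHRR rest on 12 to 14 fragments a peak, and the assignment of a peak to a gene is by distance, which can cover several genes. No replicate library was analysed, and the cause of the changes above was not tested.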
